A study of Gallus gallus with 12 samples.

Results

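SPP1, OSMR, LOC417536 and SDC1 are 4 chicken genes whose RNA stood apart in macrophages 4 h after contact with Eimeria and, in most cultures, returned towards the unstimulated level later. They were taken from the array by gene symbol, as 4 of the 2253 genes named on it, and they cover 21 of its 14718 rows. SPP1 was spotted as 3 clones, LOC417536 as 2, and OSMR and SDC1 as 1 clone each, every clone on 3 spots. The genes were chosen for their level at 4 h and its loss by 48 h, so those values are given as a description without a test. The likeness of OSMR and LOC417536 was set as a question along with that choice, so it too is a description. All 4 had a value on each of the 12 arrays and belong to the 3700 features tested.

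The 4 products act at or outside the cell surface. SPP1 encodes osteopontin, a secreted phosphoprotein with an integrin-binding motif that also binds CD44 and that macrophages release during adhesion, migration and inflammation. OSMR encodes a signal-transducing receptor subunit for oncostatin M, which in mammals pairs with the gp130 subunit (IL6ST) and signals through JAK kinases and STAT factors. LOC417536 is a chicken gene that RefSeq lists as a chemokine, under the further names CCAH221 and CCLi9. SDC1 encodes syndecan-1, a transmembrane proteoglycan whose heparan sulfate chains bind growth factors and chemokines and whose ectodomain can be shed.

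The cells were HTC, a chicken macrophage line, stimulated with Eimeria acervulina, Eimeria maxima or Eimeria tenella, which are protozoan parasites of the chicken intestine, for 4, 18 or 48 h, or left unstimulated. Every array set one RNA in the Alexa555 channel beside another of the same species in the Alexa647 channel. The 4 arrays of a species closed a loop, so that every RNA was measured once with each dye. No array paired 18 h with unstimulated cells or 4 h with 48 h, so these contrasts are indirect. There was 1 RNA per species and time. The labels give no unstimulated cells at the later times, so an effect of stimulation and one of culture time cannot be told apart. They also do not say whether the unstimulated RNA was shared by the 3 loops, and if it was, p-values of contrasts against it are too small. The cultures of the 3 species served as replicates of a time. Since nothing says that these were independent experiments, the p-values cover only the spread among these RNAs. The arrays hold ratios, so the presence of macrophage markers could not be checked, only their movement.

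All values are differences on the log2 scale in the reading Alexa555 over Alexa647. The sources used here do not state the numerator or the base of the logarithm. All 12 sample titles name the Alexa555 RNA first, which makes this direction a likely reading only, and it was adopted in earlier work with several chemokine genes in view. In the opposite reading every sign below turns, each highest level becomes a lowest one and every loss a recovery, while sizes, spreads, correlations and tests stay as they are.

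SPP1 was the most uniform of the 4 at 4 h, with the smallest SD over species. Relative to the unstimulated cells of the same loop, its level at 4 h was 2.42 with E. tenella, 2.48 with E. maxima and 2.31 with E. acervulina. The mean was 2.40 ± 0.09 (SD, n = 3 species), a 5.29-fold difference, and no other of the 3700 features had a higher mean at that time. With arrays scaled to one spread that SD was 0.49. From the 3 arrays of each loop that did not pair 4 h with unstimulated cells it was 0.29. In both settings it stayed the smallest of the 4 genes. At 18 h SPP1 stood at 0.94 with E. tenella, at -0.08 with E. maxima and at 0.87 with E. acervulina, with a mean of 0.58 ± 0.57. Thus 38.7% of the log2 change was left with E. tenella and 37.5% with E. acervulina. With E. maxima the level averaged over clones was already near that of the unstimulated cells. The clones disagreed there, at 0.42, -0.17 and -0.35 for clones 1, 2 and 3. At 48 h all 3 cultures lay slightly below the unstimulated cells, at -0.07 with E. tenella, -0.36 with E. maxima and -0.23 with E. acervulina. The difference of 48 h minus 4 h was -2.62 ± 0.19 and was the lowest mean among all features.

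The 3 SPP1 clones agreed closely at 4 h, with means over species of 2.40, 2.45 and 2.42. They parted most in the E. maxima culture at 48 h, where clone 1 gave 0.18, clone 2 gave -0.33 and clone 3 gave -0.68. Over the 3 species clone 1 averaged 0.03 at 48 h, so the level below that of the unstimulated cells came from clones 2 and 3. On the array that paired these 48 h cells with unstimulated ones, the log ratio of unstimulated over 48 h was -0.37, 0.27 and 0.80 for clones 1, 2 and 3. Not every spot had a value there: rows 80 and 10320 of clone 1 and row 2442 of clone 3 were empty. The spots of clone 2 ran from -0.13 to 0.65. The median SD between the spots of a clone that had a value on one array was 0.08, 0.15 and 0.11 for clones 1, 2 and 3, against 0.13 over all clones and arrays.

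**Figure D1:**
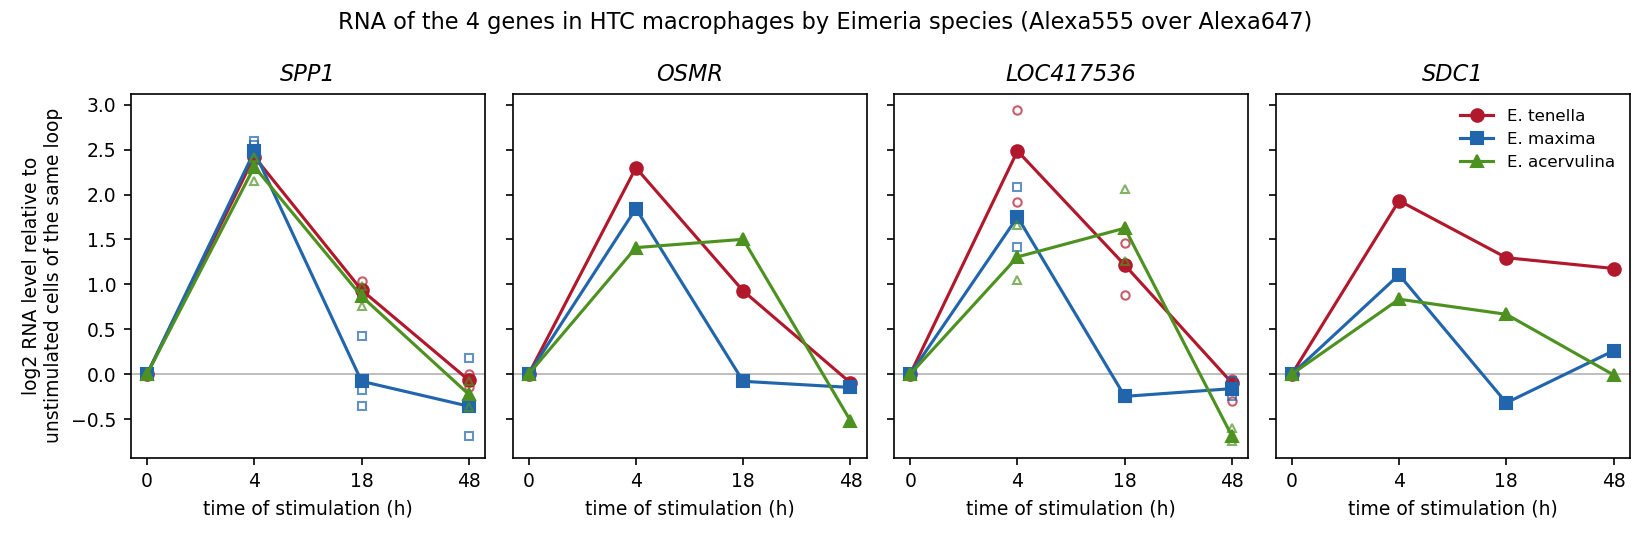
RNA level relative to the unstimulated cells of the same loop (log2, vertical axis) at 0, 4, 18 and 48 h (horizontal axis, not to scale), one line per Eimeria species; small open symbols are the single clones of SPP1 and LOC417536. SPP1 reached between 2.31 and 2.48 at 4 h in every culture, whereas OSMR and LOC417536 were higher at 18 h than at 4 h with E. acervulina, and SDC1 kept 1.18 at 48 h with E. tenella.

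OSMR, the oncostatin M receptor subunit, was graded by species at 4 h, at 2.30 with E. tenella, 1.84 with E. maxima and 1.41 with E. acervulina (mean 1.85 ± 0.44, SD, n = 3). At 18 h the order was different, with 0.93 in the E. tenella culture, -0.08 in the E. maxima culture and 1.50 in the E. acervulina culture. The E. acervulina culture therefore had its highest fitted OSMR level at 18 h, 0.09 above that at 4 h. That gap is smaller than the median SD of 0.17 between spots of the OSMR clone. The array that paired these RNAs directly gave -0.16 for 4 h over 18 h, with spots from -0.37 to 0.02. By 48 h OSMR was at or below the unstimulated level in each culture, at -0.10 with E. tenella, -0.15 with E. maxima and -0.52 with E. acervulina, and the difference of 48 h minus 4 h was -2.10 ± 0.25.

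LOC417536, the chemokine gene, had almost the same course. It stood at 2.48 with E. tenella, 1.75 with E. maxima and 1.31 with E. acervulina at 4 h (mean 1.85 ± 0.60, SD, n = 3). At 18 h it was at 1.22 with E. tenella, -0.25 with E. maxima and 1.63 with E. acervulina, so that E. acervulina again had its highest level at 18 h, 0.32 above that at 4 h. At 48 h the values were -0.10, -0.16 and -0.69 in the same order of species, and the difference of 48 h minus 4 h was -2.16 ± 0.37. Its clones had the same course but not the same size. Clone 1 averaged 2.23 ± 0.65 at 4 h and clone 2 averaged 1.46 ± 0.43, with clone 1 larger in every culture.

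SDC1, the syndecan gene, had the smallest 4 h change of the 4 genes and was still high at 48 h in one culture. Its level at 4 h was 1.93 with E. tenella, 1.11 with E. maxima and 0.83 with E. acervulina (mean 1.29 ± 0.57, SD, n = 3). At 18 h it stood at 1.30, -0.32 and 0.67 for these species, and at 48 h at 1.18, 0.26 and -0.01. With E. tenella 60.9% of the log2 change was left at 48 h, so the description as a transient gene did not hold there. The difference of 48 h minus 4 h was alike in size in the 3 loops, at -0.76 with E. tenella, -0.85 with E. maxima and -0.84 with E. acervulina.

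The SDC1 values of the E. maxima loop rest on arrays that disagreed with each other. The 4 log ratios of a closed loop sum to 0 apart from dye and array error, and for SDC1 they summed to 2.36 in the E. maxima loop, against 0.37 for E. tenella and 0.31 for E. acervulina. Only 3.81% of features were as far from 0 in that loop, where the median absolute sum was 0.48. The array that paired 4 h with unstimulated cells directly put SDC1 at 1.70 with E. maxima, and the other 3 arrays of the loop put it at -0.66. The paths of that loop from 4 to 48 h also differed in sign. Through 18 h the arrays gave 1.17 for 48 h over 18 h and -0.84 for 18 h over 4 h. Through unstimulated cells they gave 0.33 for unstimulated over 48 h and 1.70 for 4 h over unstimulated. Without the E. maxima loop the SDC1 mean at 4 h was 1.38. For SPP1, OSMR and LOC417536 the direct array and the rest of the loop gave the same sign in all 3 species, and their closing sums lay between -0.61 and 0.13.

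**Figure D2:**
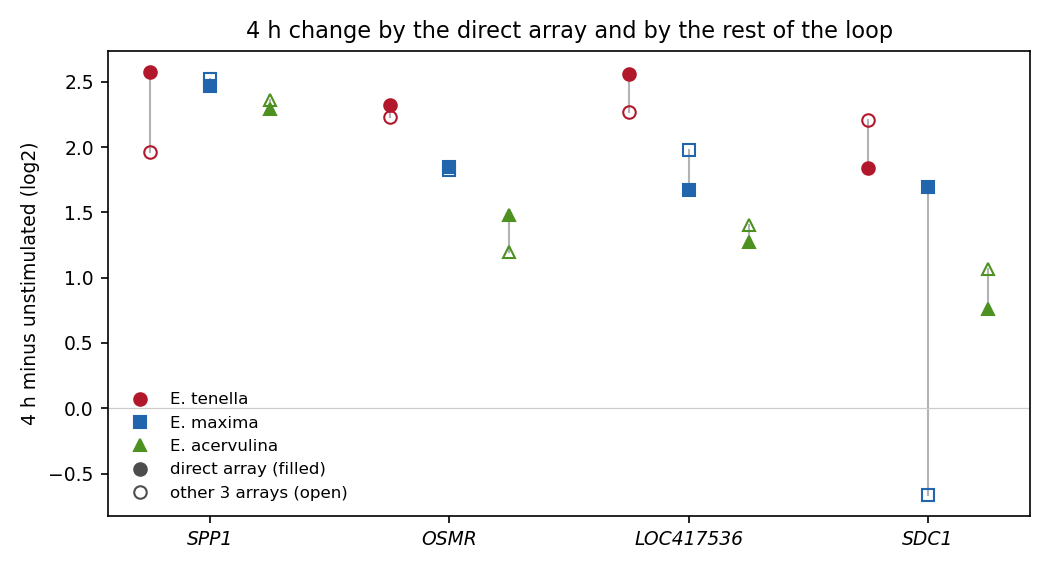
Change at 4 h against unstimulated cells (log2, vertical axis) for each gene and species, from the array that paired these RNAs directly (filled) and from the other 3 arrays of the loop (open), joined by a grey line. SDC1 with E. maxima is the pair whose values differ in sign, at 1.70 and -0.66.

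The 4 h level was above the other 3 times in all 3 species for SPP1 and SDC1 among the 4 genes, and for 209 of 3700 features (5.65%). OSMR and LOC417536 missed this count through E. acervulina at 18 h. Where 4 h was highest, the gap to the next highest time was between 1.44 and 2.48 for SPP1 and between 0.17 and 0.85 for SDC1. The SDC1 gap of 0.85 came from the E. maxima loop, whose arrays disagreed. Over all features, the mean change at 4 h had a median of -0.03 and 90% of features lay between -0.58 and 0.60. The 4 genes ranked 1 (SPP1), 6 (OSMR), 7 (LOC417536) and 21 (SDC1) from the top at 4 h. Rows with no symbol stood alone in this ranking, so a clone without a symbol could count more than once. Among the 2238 named features the ranks were 1, 4, 5 and 9 in the same order. For 48 h minus 4 h SPP1, LOC417536 and OSMR were the lowest 3 of all features, and SDC1 ranked 83, or 46 among the named ones.

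**Figure D3:**
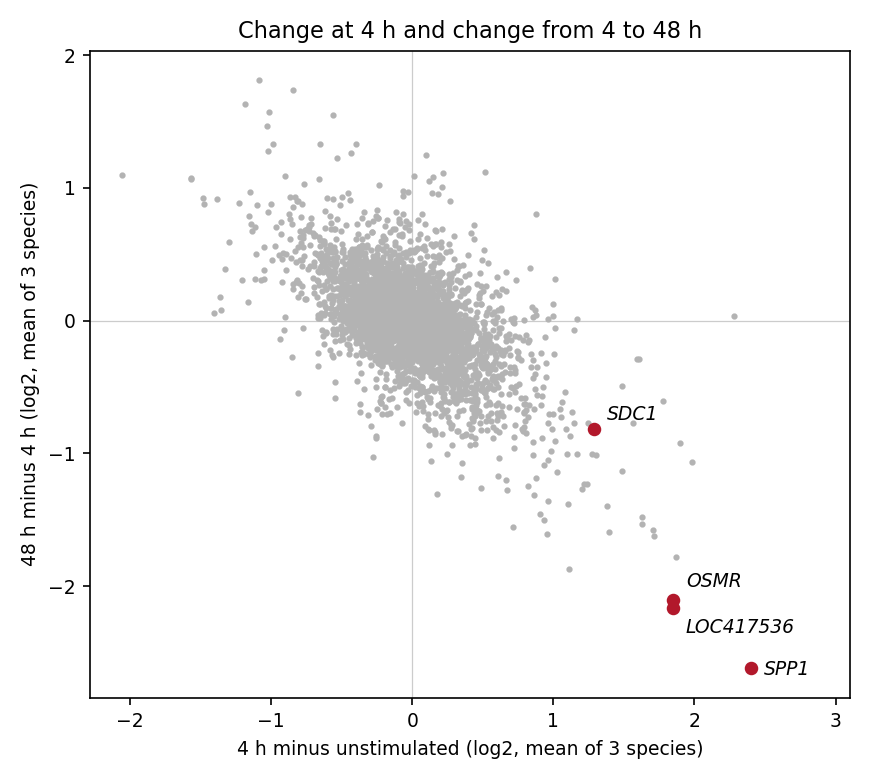
Mean change at 4 h against unstimulated cells (horizontal axis, log2) and mean change from 4 to 48 h (vertical axis, log2) over 3 species, for 3700 features in grey and the 4 genes in red; both axes use the 4 h level, so a downward slope is built in. SPP1, OSMR and LOC417536 lie at the lower right edge, and SDC1 lies nearer the other features, at 1.29 and -0.81.

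Differences between species were tested on the same arrays. The genes were chosen for a 4 h change and a later loss common to the species, so this test is not free of that choice. With 1 RNA per species and time, the error of this test comes from the arrays, so it says whether these RNAs differ and not whether the species do. For the change at 4 h limma called 0 of 3700 features (0%), with 734 at an unadjusted p under 0.05. OSMR was 0.89 and LOC417536 1.18 higher with E. tenella than with E. acervulina, with 95% intervals of 0.38 and 0.43 to either side, and limma's F test over the 3 species gave a Benjamini-Hochberg adjusted p of 0.16 for OSMR and 0.156 for LOC417536. For SPP1 the largest of the 3 differences, E. maxima minus E. acervulina, was 0.17 with an interval of 0.53 to either side (adjusted p = 0.816, limma). For SDC1 the interval was 1.37 to either side, so that its difference of 1.10 between E. tenella and E. acervulina lay within it (adjusted p = 0.415, limma).

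The change between 4 and 18 h was compared after its values were seen. In the E. tenella culture it was -1.37 for OSMR and -1.27 for LOC417536. In the E. maxima culture it was -1.92 for OSMR and -1.997 for LOC417536. In the E. acervulina culture OSMR and LOC417536 were at 0.09 and 0.32, so only there was 18 h the higher time. The E. maxima minus E. acervulina difference was -2.01 for OSMR and -2.32 for LOC417536, with 95% intervals of 0.38 and 0.43 to either side. By p-value these genes ranked 6 and 8 of all features, yet neither passed after adjustment (limma's F test, adjusted p = 0.0978 for both). No feature did: 0 of 3700 (0%) were called, and 672 had an unadjusted p under 0.05. For SPP1 the change with E. maxima was -1.12 relative to that with E. acervulina, with an interval of 0.53 to either side (limma, adjusted p = 0.181). All 4 genes had their lowest 18 h minus 4 h change with E. maxima. The same held for 44.3% of the 167 features that limma called higher at 4 h, and for 26.3% of all features. From 4 to 48 h, where 6 of 3700 features (0.162%) differed between species, none of the 4 genes was among them, and limma's adjusted p was 0.49 for SPP1, 0.225 for OSMR, 0.165 for LOC417536 and 0.989 for SDC1.

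OSMR and LOC417536 ran almost as one. Over the 12 RNA levels, which are centred within each loop and derived from shared arrays, Pearson's r was 0.9951 and Spearman's rho 0.979. Within the E. tenella loop r was 0.9962, within the E. maxima loop 0.9968 and within the E. acervulina loop 0.9952. Without the 4 h levels r over the other 9 was 0.9954. After the mean of each time had been taken out it was 0.992, so the likeness extended to differences among the RNAs of the same time. Over the 12 levels SPP1 was less like either gene, with r = 0.9407 to OSMR and 0.9129 to LOC417536. After the time means had been taken out these were 0.756 and 0.7697. The lower r to OSMR came from the E. acervulina loop, at 0.8331. With E. tenella and E. maxima OSMR was slightly more like SPP1 than LOC417536, with r = 0.9997 and 0.9981 to SPP1. For LOC417536 and SPP1 r was 0.9941 with E. tenella, 0.9922 with E. maxima and 0.7788 with E. acervulina. SDC1 had r = 0.8424 to OSMR, 0.8419 to LOC417536 and 0.8252 to SPP1.

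On the arrays themselves the OSMR clone and LOC417536 clone 2 took the same order on all 12, with Spearman's rho of 1.0. Their log ratios differed by 0.50 at most and by 0.25 as a root mean square. The 2 clones of LOC417536 differed from each other by more, up to 1.04 and by 0.61 as a root mean square, since clone 1 had the wider range. On the array of unstimulated over 4 h E. tenella cells, for example, OSMR gave -2.32, LOC417536 clone 1 gave -2.97 and clone 2 gave -1.93. On the array of 18 h over 48 h E. acervulina cells they gave 1.95, 2.77 and 1.93. Of 4839 other clones or array positions, LOC417536 clones 2 and 1 were the first and the second most like OSMR. Among 1014 pairs of clones that share a symbol the median r was 0.63, and 3 pairs had an r at least as high as that of OSMR with LOC417536 clone 2. Genes of wide range reach higher r than genes near the array error. The pair was also set along with the choice of genes, so these ranks and shares describe the array and test nothing. Whether the OSMR and LOC417536 spots share sequence was not examined.

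**Figure D4:**
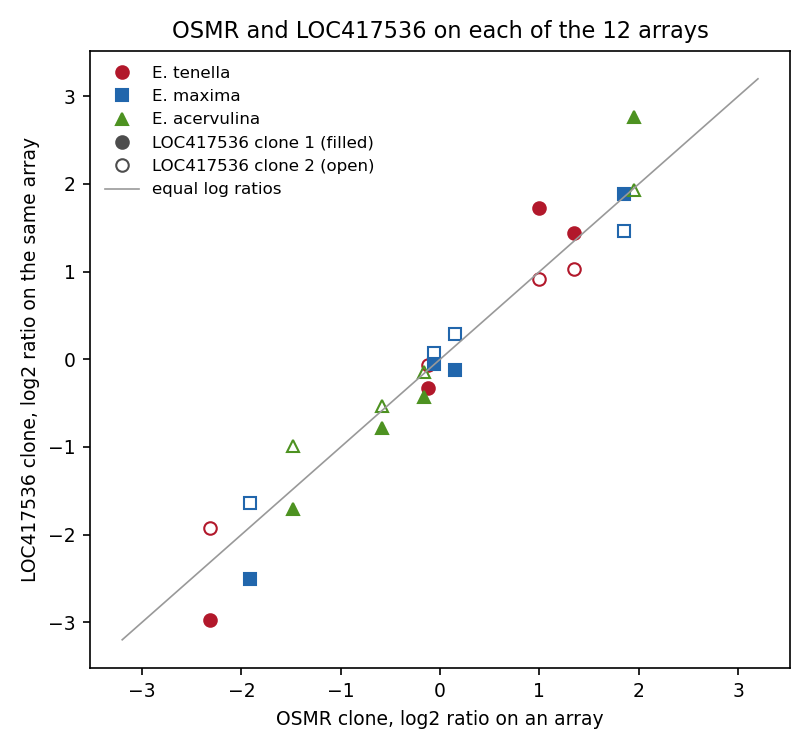
Log2 ratio of the OSMR clone (horizontal axis) and of the LOC417536 clones (vertical axis; clone 1 filled, clone 2 open) on each of the 12 arrays, coloured by species, with the line of equal ratios. Clone 2 stays within 0.50 of OSMR on every array, and clone 1 is wider, from -2.97 to 2.77.

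The named features most like LOC417536 after OSMR were CCL26, MRPL2, TMEM214 and NKRF, with r between 0.923 and 0.9566 over the 12 levels. Of these, NKRF and TMEM214 were lower at 18 h than at 4 h with E. acervulina, unlike LOC417536. CCL26, a further CC chemokine gene, lies among the 5 nearest protein-coding genes to LOC417536 on one side in the RefSeq annotation of GRCg7b, as does CCL1. CCL26 stood at 0.85, 0.48 and 0.55 at 4 h and at 0.48, -0.24 and 0.97 at 18 h with E. tenella, E. maxima and E. acervulina, while CCL1 had a mean of -0.00 at 4 h (limma, adjusted p = 0.988). For OSMR the list was LOC417536, MRPL2, CCL26, SPP1 and TOMM22. MRPL2, a protein of the mitochondrial ribosome, and TOMM22, a part of the mitochondrial import channel, had mean 4 h changes of only 0.24 and 0.27. The nearest measured neighbour of OSMR in the annotation, RICTOR, had 0.07 at 4 h (limma, adjusted p = 0.823). PUM2, an RNA-binding repressor and the gene next to SDC1, rose at 4 h, at 0.91 (limma, adjusted p = 0.00963). RHOB, a small GTPase gene further along on the same side, fell, at -0.57 (limma, adjusted p = 0.0495), and LAPTM4A, next to SDC1 on the other side, was at 0.24 (limma, adjusted p = 0.197). Over all features 10.4% passed at 4 h. From 4 to 48 h RICTOR rose by 0.80 and RHOB by 0.69 (limma, adjusted p = 0.0372 and 0.0357). No other measured neighbour passed in that contrast, where 7.14% of all features did. Without the E. acervulina loop no feature passed in either contrast. No neighbour of SPP1 within 5 genes on either side was measured.

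SPP1 was most like FBXO4, LEMD3, OSMR, ARCN1 and RASSF2, with r between 0.9375 and 0.9497. FBXO4, an F-box protein of a ubiquitin ligase, stood at 1.11, 0.88 and 0.88 at 4 h and at -0.35, -0.61 and -0.23 at 48 h with E. tenella, E. maxima and E. acervulina. SDC1 was most like NISCH, CLN8, RAB7B, ARFGAP3 and LOC395551, with lower r, between 0.8692 and 0.9062. LOC395551 is a CC chemokine gene that RefSeq also lists under the name CCL4, although the array has a separate CCL4 symbol, and CLN8 and ARFGAP3 serve traffic between the endoplasmic reticulum and the Golgi. CLN8 shared with SDC1 a 48 h level that stayed at 1.20 with E. tenella, against 0.19 with E. maxima and -0.03 with E. acervulina. These genes were selected by their likeness over the same 12 levels, so no test of their course is given.

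The list of other CC and XC chemokine and receptor genes had 8 measured members and left out CXC chemokines, which the array also holds. Of these, 7 of 8 were higher at 18 h than at 4 h with E. acervulina, 2 of 8 with E. maxima and 0 of 8 with E. tenella. Over all features these shares were 54.2%, 59.0% and 49.7%. The differences with E. acervulina ran up to 0.70 for LOC395551, 0.59 for CCL5 and 0.54 for CCL20, a chemokine of the mucosal CCR6 axis, and were under 0.1 for CCL4 and XCL1. This count was made after the values were seen and was not tested. LOC395551 was the 1 of these 8 genes that rose at 4 h, at 2.92 with E. tenella, 1.43 with E. maxima and 0.79 with E. acervulina (mean 1.71, SE 0.47, limma with Benjamini-Hochberg adjustment, adjusted p = 0.0495). In that contrast 385 of 3700 features (10.4%) passed, 4.51% higher and 5.89% lower. The LOC395551 call was lost when arrays were scaled (limma, adjusted p = 0.0714), with row medians (limma, adjusted p = 0.0529) and when any one species was left out. The median of the 8 was 0.44, against -0.03 over all features.

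Of 11 receptor, protease and adhesion partners of osteopontin measured, 1 rose at 4 h and none fell, where 10.4% of all features passed in either direction. ITGB5, the integrin beta 5 subunit that pairs with the alpha V subunit to bind osteopontin, stood at 0.50, 1.24 and 1.06 at 4 h with E. tenella, E. maxima and E. acervulina (mean 0.93, SE 0.20, limma, adjusted p = 0.025). It fell again from 4 to 48 h, at -0.52, -1.39 and -1.36 (mean -1.09, limma, adjusted p = 0.024), a contrast in which 264 features (7.14%) passed, 3.3% higher and 3.84% lower. The other receptor genes did not pass at 4 h: ITGAV was at -0.24, ITGB1 at -0.40 and CD44, the hyaluronan receptor, at -0.12 (limma, adjusted p = 0.169, 0.0999 and 0.673). MMP9, a protease known to cleave osteopontin, stood at 1.38 with E. tenella, 0.79 with E. maxima and 0.40 with E. acervulina (limma, adjusted p = 0.0698). These values average clones that differ: an MMP9 clone that ran close to SDC1 (r = 0.9223) had a mean of 1.42 at 4 h, against 0.85 for the gene.

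Of 21 listed transcription factors linked to SPP1 in mammals, 10 were measured, and RUNX2 was among those that were not. Of the 10, CEBPB rose at 4 h and none fell, where 10.4% of all features passed in either direction. CEBPB, a factor of myeloid differentiation and inflammation, was at 0.44, 0.60 and 0.59 for the 3 species in the order above (mean 0.54, SE 0.14, limma, adjusted p = 0.041). The CEBPB call was lost when arrays were scaled (limma, adjusted p = 0.0533). HIF1A, the oxygen-regulated factor, did not pass at 4 h (0.15) and rose from 4 to 48 h, by a mean of 1.08 (limma, adjusted p = 0.018). In that contrast 3.3% of all features passed as higher. JUN stood at -0.18 and FOS at -0.04 at 4 h, and ETS1 at 0.82, with 1.67 in the E. maxima culture (limma, adjusted p = 0.645, 0.926 and 0.0757).

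Of 8 genes of oncostatin M and interleukin 6 receptor signalling measured, none passed in either contrast, with medians of -0.16 at 4 h and 0.12 from 4 to 48 h. Over all features 10.4% passed at 4 h and 7.14% from 4 to 48 h. IL6ST, the gp130 partner of OSMR, was at 0.10, -0.02 and 0.22 at 4 h with E. tenella, E. maxima and E. acervulina. SOCS3, the feedback inhibitor that STAT3 induces in mammals, was at -0.01, -0.13 and -1.32, so that its mean of -0.49 came mostly from E. acervulina (limma, adjusted p = 0.32). Of 7 syndecan and heparan sulfate genes measured none passed either, and the medians were -0.10 at 4 h and -0.09 from 4 to 48 h. SDC4, the other syndecan measured, stood at 0.03, 0.16 and -0.45 at 4 h, unlike SDC1, and ADAM17, a protease that sheds syndecans, at 0.11 on average.

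**Figure D5:**
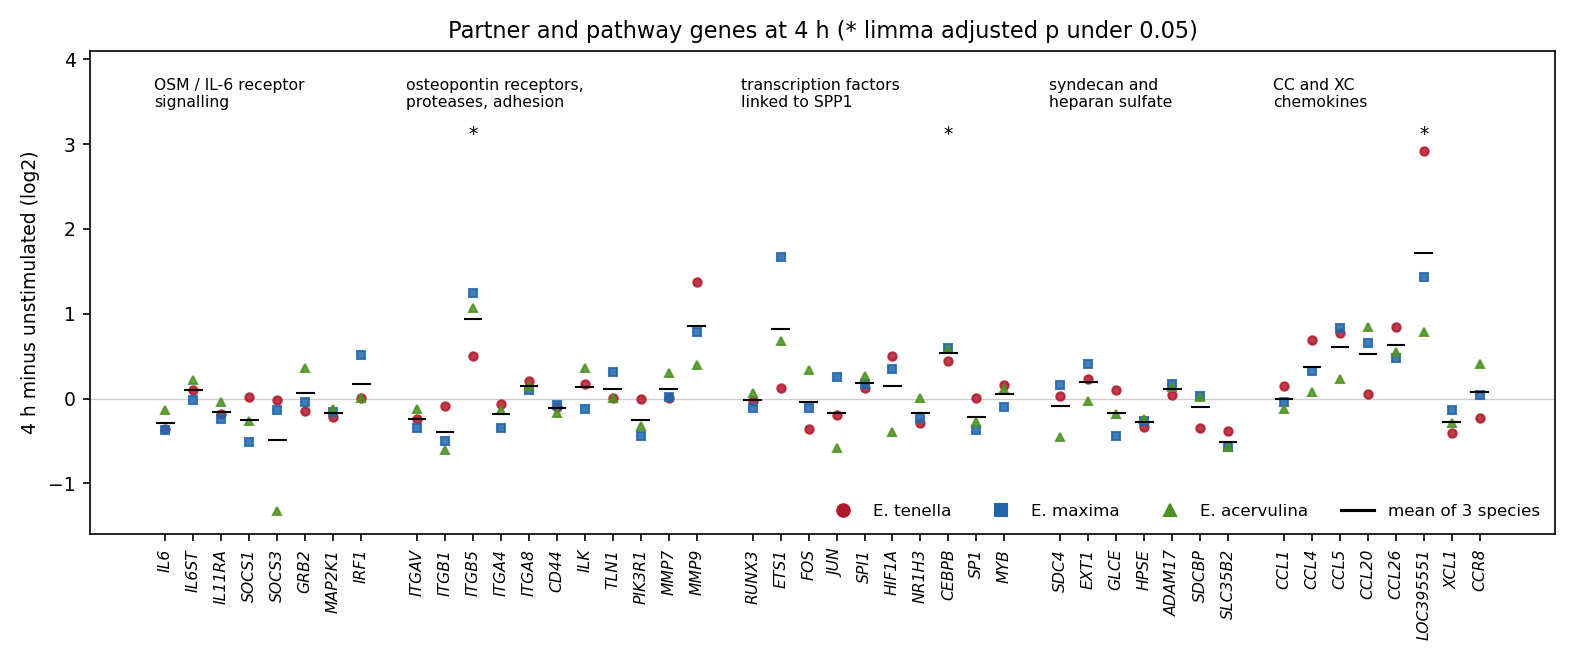
Change at 4 h against unstimulated cells (log2, vertical axis) for 44 partner and pathway genes in 5 lists, with one symbol per species, a bar for the mean of 3 species and an asterisk for a limma adjusted p under 0.05. ITGB5, CEBPB and LOC395551 carry the asterisk, and the mean of LOC395551, at 1.71, is the highest.

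Over the 5 lists together 3 of 44 measured genes rose at 4 h and none fell, and from 4 to 48 h 1 rose and 1 fell. Over all features 4.51% were called higher and 5.89% lower at 4 h, and 3.3% higher and 3.84% lower from 4 to 48 h. Each of these 5 calls was lost when any one species was left out, with a highest adjusted p of 0.21 at 4 h and 0.19 from 4 to 48 h (limma). Of 13 macrophage markers 1 rose at 4 h (CTSD, at 1.27) and 2 fell (LYZ, at -0.93, and TLR2A, at -0.81), against 10.4% of all features in either direction, and their median was 0.18. From 4 to 48 h 1 of the 13 rose (LYZ, at 0.74, limma, adjusted p = 0.0236) and none fell, against 7.14% of all features. The markers of other cell types that were measured did not pass in either contrast: FN1 for fibroblasts was at 0.38, CD3D and CD28 for lymphocytes at 0.13 and 0.14 (CD3D at -0.92 with E. tenella and 1.24 with E. acervulina), and HBBA for red cells at -0.11 at 4 h. The part of these markers in the values of the 4 genes was not tested.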

How the data were processed

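The arrays measured RNA of HTC chicken macrophages in 12 hybridisations. The authors deposited 1 log ratio per spot and array, read here as log2. The sources used here do not state the background correction, normalization, numerator or base. Array medians lay between -0.04 and 0.12, and between 12199 and 13938 of 14718 rows had a value. A single symbol of the platform annotation named 9066 rows. Rows of one symbol were averaged and other rows stood alone, and 3700 features (2238 named) had no missing array and were kept. The number of arrays limits the precision.

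Levels of the 4 RNAs of a loop were fitted by least squares, and a constant dye effect of a feature drops out. Limma (version 3.58.1, R 4.3.3) was fitted to the 12 levels with time and a species block (6 residual degrees of freedom). This fit treated the levels as independent and equally precise, although the 4 levels of a loop came from the same 4 arrays. Its p-values make no allowance for that. Differences between species came from a fit to the arrays with a dye term and 9 coefficients, 1 for each stimulated RNA (2 residual degrees of freedom). P-values of the time contrasts were two-sided, and those of the differences between species came from F tests. All were adjusted by Benjamini-Hochberg over all features, with a threshold of 0.05. The fits were tested on simulated data with independent array errors and separate unstimulated RNAs, so a shared unstimulated RNA was not covered.

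The genes and lists were chosen with earlier results of these data known. Besides the 4 genes, the text names the 5 named features most like each by Pearson's r, list genes past the threshold, and preset partners such as IL6ST and CD44. Alternatives were centring or scaling arrays, row medians, clones as features, a wider filter on missing values, single paths through a loop, and leaving out each species.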

Additional observations from a re-analysis of the deposited data

How the results depend on the processing

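The means of the 4 genes at 4, 18 and 48 h and from 4 to 48 h kept their sign with centred or scaled arrays, row medians and any one species left out, as did the 4 h means from single paths, and moved by less than the SD over species except for SPP1 at 4 h, which was 2.28 from the 3 arrays that did not pair these RNAs directly. Of the single clones, SPP1 clone 1 had a 48 h mean of 0.03, against -0.22 for the gene. Leaving out a species put the 18 h means between 0.39 and 0.90 for SPP1, 0.42 and 1.21 for OSMR, 0.48 and 1.42 for LOC417536, and 0.17 and 0.98 for SDC1. The r of OSMR and LOC417536 was 0.9923 with row medians and on the array ratios, 0.9926 with clone 1 alone and 0.9963 with clone 2 alone. Counts of features depended on having 3 species: leaving out 1 left 0 to 76 of 385 at 4 h, 0 to 11 of 264 from 4 to 48 h, 0 to 0 of 1 from 4 to 18 h, and 308 to 439 in place of 209 with the highest level at 4 h; the pathway calls became 0 to 0 in both contrasts. With 3 of 4 arrays per loop admitted the counts were 154 from 4 to 48 h, 0 from 4 to 18 h and 326 with 4 h highest. From 4 to 18 h 3 features passed with centring, 40 with scaling and 4 by clone, against 1. Between species the 6 features from 4 to 48 h became 0 with scaling, 10 with row medians and 32 by clone, and the 0 from 4 to 18 h became 1 with centring and 9 by clone. With scaling the pathway calls at 4 h were 1 and with row medians 2, against 3. The causes were not tested. The labels give no replicate numbers to pair samples by, and the time fit held species as a block.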

Other observations

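An array position with no symbol, first spotted at row 1821, ran close to OSMR, with r = 0.9865 over the 12 levels. It stood at 1.42, 0.98 and 0.87 at 4 h and at 0.58, -0.33 and 1.07 at 18 h with E. tenella, E. maxima and E. acervulina. It thus had, like OSMR and LOC417536, a higher fitted level at 18 h than at 4 h with E. acervulina, a gap that was small for OSMR. A further position with no symbol, first spotted at row 1808, ran close to SPP1 clone 3, with r = 0.9896, and stood at 1.07, 1.06 and 1.02 at 4 h and at 0.10, -0.07 and 0.00 at 48 h. Both were singled out after their values were seen.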
